A study of Mus musculus with 6 samples.

Results

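The 10 genes described here were chosen by symbol from the combined count table: the interleukin-4 receptor alpha chain Il4ra, the chains Il13ra1, Il13ra2 and Il2rg that pair or compete with it, the interleukin-17 receptor chains Il17ra, Il17rc and Il17rd, the shared interleukin-10 family chain Il10rb, the cytokine gene Il15 and its receptor chain Il15ra. All 10 were present among the 24348 genes of the table, and all 10 were among the 19925 genes that entered the test, for which 10 counts or more in 3 or more libraries were required. The study asked how synovial fibroblasts respond when immune complexes circulate. Fibroblasts were flow-sorted from digested synovium, the membrane that lines joints, of C57BL/6 mice with no engineered allele named in the labels. One group of 3 libraries came from mice given immune complexes (IC), ovalbumin bound by rabbit anti-ovalbumin antibody, by injection into a vein, and the other group of 3 came from mice given vehicle. The labels give no age or time after injection, the study's methods state adult ages and the use of both sexes only for its mice in general, and the labels do not say whether each library came from 1 mouse or from a pool, so the spread between libraries may be partly technical.

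Il4ra encodes the signalling chain bound by interleukin-4 and, together with Il13ra1, by interleukin-13. On cells outside the blood lineage, the pair of Il4ra and Il13ra1 forms the type II receptor and signals through Jak kinases to the transcription factor Stat6. With Il2rg, the common gamma chain of many cytokine receptors, Il4ra forms the type I receptor, which is typical of blood cells, whereas Il13ra2 binds interleukin-13 as a decoy. Il17ra pairs with Il17rc to bind interleukin-17A and interleukin-17F, and Il17rd is a further receptor of the same family. Synovial fibroblasts are well known to respond to interleukin-17 with chemokines, interleukin-6 and matrix-degrading enzymes.

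Total counts ranged from 40114331 to 56714304 per library. The 10 fibroblast markers, such as collagens and Pdgfra, summed to 44785 to 46497 CPM (counts scaled to the total of each library) in IC libraries and 45641 to 55505 in vehicle libraries. Leukocyte markers (6 of 8 in the table) summed to 5.34 to 6.76 CPM in IC and 8.66 to 9.12 in vehicle libraries. One gene, Arhgdib, held 73.1% to 88.9% of that sum, and the other 5 summed to 1.15 to 1.46 CPM in IC and 0.958 to 1.15 in vehicle libraries. Macrophage markers (7 of 10) summed to 32.2 to 50.6 and 39.6 to 51.6. T, NK and B cell markers (2 of 10) were at 2.11 to 4.01 and 2.91 to 4.53, and the only neutrophil marker of 6 in the table, S100a8, was at 0.111 to 0.261 and at 0. The defining markers Ptprc, Adgre1 and Cd3e were on the lists but absent from the count table. Each gene in that table had counts above 0 in 3 or more libraries. Endothelial markers (8 of 8) were at 201 to 266 in IC and 266 to 316 in vehicle libraries, and skeletal muscle markers (10 of 10) at 14.7 to 28.8 and 24.9 to 60.3.

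Il4ra was by far the most abundant of the receptor genes. Its level, in CPM per kilobase of exon, was 89.8, 72.7 and 83.4 in the IC libraries and 125.9, 136.0 and 125.5 in the vehicle libraries. The mean of the 6 libraries, 105.6 ± 26.7 (SD), stood at percentile 98.7 of the tested genes. Il13ra1, its partner in the type II receptor, followed at 32.4 ± 3.58, 3.26-fold below Il4ra and at percentile 94.95. Both chains of the type II receptor were therefore among the abundant transcripts of these fibroblasts.

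The interleukin-17 receptor chains came next. Il17ra stood at 14.3 ± 0.693, Il17rc at 9.98 ± 1.59 and Il17rd at 6.64 ± 0.560 on the same per-length scale. Il15ra (5.08 ± 0.589) and Il10rb (5.03 ± 0.362) were close, with Il15ra the higher in only 4 of 6 libraries, and Il15 followed at 2.88 ± 0.586. The lowest were Il13ra2 at 0.169 ± 0.0957 and Il2rg at 0.0881 ± 0.0670, at percentiles 7.81 and 3.15, and these also changed places in 2 of 6 libraries. The order of the other 7 of 9 neighbouring pairs was the same in each of the 6 libraries. With the length of the longest transcript in place of all annotated exon, 6 pairs kept their order in 6 libraries and Il15ra moved above Il17rd, from 5.08 to 9.76. Levels are counts per gene and do not separate transcripts for membrane-bound and soluble forms, of which Il4ra has both in the mouse.

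**Figure D1:**
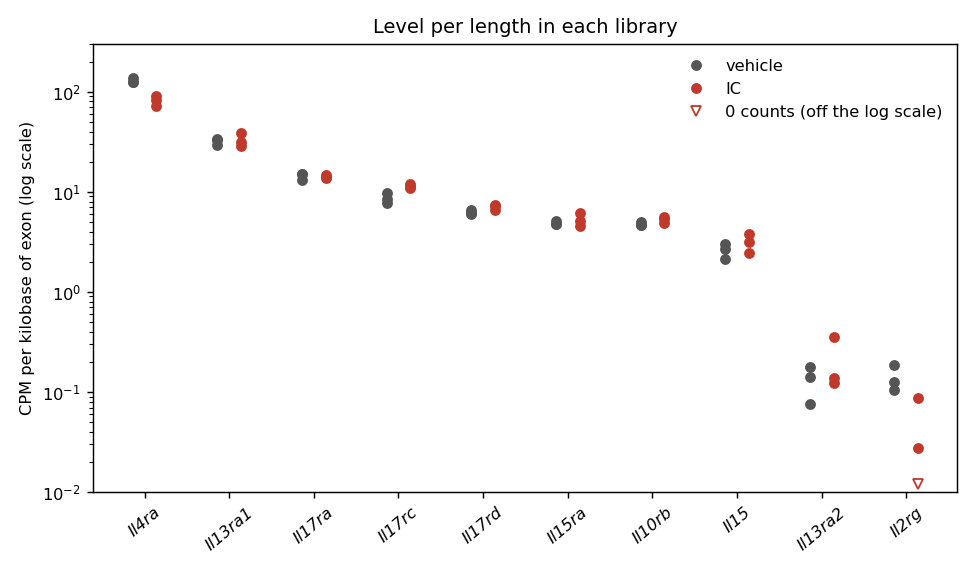
Level of each gene in each library in CPM per kilobase of exon (log scale), with vehicle libraries in grey and IC libraries in red. Il4ra lies highest, between 72.7 and 136.0, Il13ra2 and Il2rg lie lowest, and the open triangle marks the IC library with 0 counts of Il2rg, which has no place on a log scale.

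On the mouse assembly GRCm38, by the GENCODE M21 annotation, Il4ra spans chr7:125552120-125579474 on the plus strand. Il13ra1 (chrX:36112110-36171259, plus strand), Il13ra2 (chrX:147383476-147429192, minus strand) and Il2rg (chrX:101264378-101268255, minus strand) are X-linked. Il17ra (chr6:120463247-120487559) and Il17rc (chr6:113471427-113483140) share a chromosome and the plus strand, and Il17rd lies at chr14:27038941-27107286 on the plus strand. Il10rb (chr16:91406164-91425834) and Il15ra (chr2:11705290-11734317) are on the plus strand and Il15 (chr8:82331632-82403222) on the minus strand.

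Exons of 3 of the genes overlap those of another annotated gene. For Il4ra, 571 bases (9.51% of its exon) overlap the antisense gene Gm44876, which had 2 to 4 counts per library. For Il2rg, 30.5% of exon overlaps Gm20489 on the same strand, and for Il10rb 14.9% overlaps Gm21970, also on the same strand. Whether shared reads were counted is not given in the sources used here, so the levels of Il2rg and Il10rb are uncertain to that extent.

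Promoter sequence from RefSeq (GRCm38.p6) was matched for 7 of the 10 genes, and it is shown for the most and the least abundant chains because they differ in CpG dinucleotides, the feature of CpG-island promoters. In the 250 bases before the RefSeq start, Il13ra1 held 21 CpG and Il4ra 17, against a median of 6 over 32851 promoters. At least as many CpG were present in 16.3% and 23.5% of all promoters. Il2rg held 3 and Il13ra2 held 1, numbers reached by 71% and 92.1% of promoters. Sequences run 5′ to 3′ on the strand of the gene with each CpG in capitals. For Il4ra they stop at the earliest annotated start, which leaves chr7:125552021-125552119 with 6 CpG. The others cover chrX:36111858-36112107, chrX:101268256-101268505 and chrX:147429193-147429442, in that order.
Il4ra: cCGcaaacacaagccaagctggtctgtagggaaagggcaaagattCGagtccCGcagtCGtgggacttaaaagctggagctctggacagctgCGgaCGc
Il13ra1: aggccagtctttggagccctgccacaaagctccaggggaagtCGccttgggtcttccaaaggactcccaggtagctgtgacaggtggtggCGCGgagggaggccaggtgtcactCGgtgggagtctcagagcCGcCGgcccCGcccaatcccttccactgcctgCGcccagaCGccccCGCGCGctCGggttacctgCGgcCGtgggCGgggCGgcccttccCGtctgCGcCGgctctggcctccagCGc
Il2rg: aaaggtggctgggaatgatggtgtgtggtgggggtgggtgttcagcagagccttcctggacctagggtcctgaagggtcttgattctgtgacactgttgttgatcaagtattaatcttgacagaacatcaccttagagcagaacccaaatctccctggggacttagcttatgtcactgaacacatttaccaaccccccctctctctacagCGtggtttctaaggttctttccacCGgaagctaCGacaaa
Il13ra2: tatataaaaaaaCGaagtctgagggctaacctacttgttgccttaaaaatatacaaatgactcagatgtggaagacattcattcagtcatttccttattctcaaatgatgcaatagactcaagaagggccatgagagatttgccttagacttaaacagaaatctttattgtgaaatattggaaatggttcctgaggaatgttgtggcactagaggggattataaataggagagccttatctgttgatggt

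The other promoters lay between these, with 10 CpG for Il17rd, 4 for Il17rc, and 2 and 12 for the 2 entries of Il15ra. The second Il15ra entry, chr2:11705462-11705711, lies wholly inside the gene as GENCODE annotates it, and so do its CpG and motif matches. Motifs were searched on both strands of the same 250 bases. The STAT pattern TTCNNNGAA and the Stat6 pattern of TTC and GAA 4 bases apart, present in 7.02% and 5.85% of all promoters, matched none of the 7 genes. The same held for the interferon-response pattern of GAAA repeated 2 bases apart (2.98% of promoters). The AP-1 pattern TGANTCA (6.75% of promoters) was found 193 bases before the start of Il13ra2, in the sequence printed above, and 30 bases before the start of the second Il15ra entry. These matches describe letters in a short window only.

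Il4ra was lower after IC. Its normalized counts, counts divided by the size factor of the library, were 25895, 20700 and 24246 in the IC libraries and 35133, 40230 and 36741 in the vehicle libraries. Each IC library lay below each vehicle library, and the IC mean of 23614 ± 2655 (SD, n = 3) was 63.2% of the vehicle mean of 37368 ± 2606 (SD, n = 3). The log2 fold change was -0.66 ± 0.0922 (SE), with a 95% interval from -0.84 to -0.48. The genes were chosen with this contrast known, so these values are a description and carry no test. In these bulk libraries, fewer cells of a type and less RNA per cell cannot be told apart.

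Few genes of its abundance fell as far, in a contrast that was known when Il4ra was chosen. Rises of that size were not counted. Of 156 genes whose mean normalized count reached that of Il4ra, itself included, 17 passed an adjusted p of 0.05 in DESeq2 and the median absolute log2 fold change was 0.12. A log2 fold change at or below that of Il4ra was seen in 3 of them, namely Il4ra, Txnip and Gm42418, the latter pair named after their values were seen. Among the 214 genes that were called lower at any abundance, Il4ra ranked 103rd by fold change.

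Other measurements moved with the same groups. Of the fibroblast markers, Col3a1 (log2 fold change -0.38 ± 0.0961, adjusted p = 0.00679 in DESeq2 and 0.177 in edgeR) and Lum (-0.36 ± 0.0859, 0.0025 and 0.135) fell, and Prg4, the lubricin gene of the synovial lining, rose by 0.94 ± 0.248 (0.0103 and 0.0541). The 8 endothelial markers had a median log2 fold change of -0.48. Of these, 4 were non-overlapping and lower, against 7.67% of all tested genes, and 0 were non-overlapping and higher. Kdr (-0.70, adjusted p = 3.45e-05 in DESeq2 and 0.0537 in edgeR) and Cdh5 (-0.74, 0.0496 and 0.319) fell. The endothelial markers differed among themselves, with Vwf at -0.04 and Tek at -0.07. Further marker calls by DESeq2 were Ncam1 of the Schwann cell list (-0.69, 5.31e-05 and 0.0593), Myh11 of the mural list (-0.96, 0.0131 and 0.237) and Acan of the chondrocyte list (1.34, 0.0029 and 0.108). The part of these shifts in the Il4ra difference was not tested. Skeletal muscle markers had a median log2 fold change of -1.94 over 9 tested genes, of which Myh1 and Actn3 were called lower by DESeq2. With the muscle marker score as a term, the log2 fold change of Il4ra was -0.56 ± 0.165 and Il4ra was no longer called, while the calls over all genes went from 419 to 22. IC replicate 1 and vehicle replicate 3 had the closest muscle scores between groups (-0.36 and -0.29), and their Il4ra counts were 25895 and 36741. With 1 library from each group, this pair cannot separate muscle content from treatment. The part of muscle content in the Il4ra difference was not tested.

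**Figure D2:**
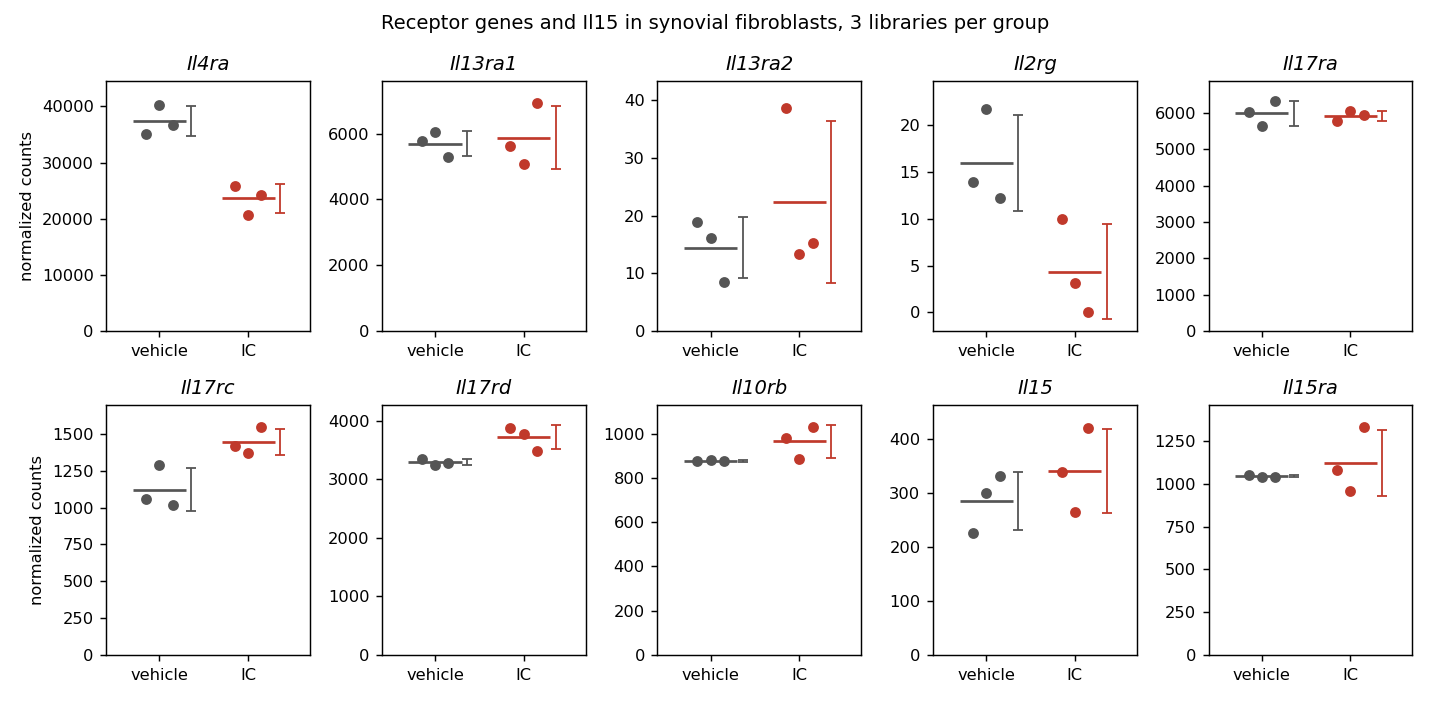
Normalized counts of the 10 genes in each of the 3 vehicle (grey) and 3 IC (red) libraries, on linear axes, with the group mean as a horizontal line and 1 SD as a bar beside it. Il4ra shows the clearest separation, and Il13ra1, Il13ra2, Il17ra, Il15 and Il15ra overlap between groups.

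Il13ra1 overlapped between groups. It stood at 5624, 5066 and 6930 normalized counts in the IC libraries and at 5772, 6038 and 5277 in the vehicle libraries, with the highest and the lowest value both in IC libraries. Its log2 fold change was 0.04 ± 0.113, with a 95% interval from -0.18 to 0.27. Ratios of the type II receptor chains within libraries restate the Il4ra difference, for which the contrast was known beforehand. How often ratios of other gene pairs fail to overlap was not computed. Il4ra was 2.51 ± 0.342 times as abundant as Il13ra1 per length after IC and 4.06 ± 0.275 times as abundant after vehicle (SD, n = 3 each). The ratio of Il13ra1 to Il4ra was 0.351, 0.396 and 0.462 in the IC libraries and 0.266, 0.243 and 0.232 in the vehicle libraries, without overlap. This ratio does not depend on the scaling of the libraries.

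Il13ra2, the decoy, was near the detection limit. Raw counts were 35, 13 and 17 in the IC libraries and 23, 17 and 7 in the vehicle libraries. IC replicate 1 held the highest value and the groups otherwise overlapped, with a log2 fold change of 0.62 ± 0.837. Without IC replicate 1 the value was -0.02, and with the muscle marker score as a term it was 1.82. Il2rg was lower still, with raw counts of 9, 3 and 0 after IC and 17, 23 and 10 after vehicle. In normalized counts these were 9.92, 3.10 and 0 against 13.9, 21.7 and 12.2, which did not overlap. Only the vehicle libraries met the minimum of 10 counts, so this lack of overlap was largely set by the filter. The log2 fold change of -1.90 had a standard error of 1.25 and a 95% interval from -4.35 to 0.55. The 0 counts in IC replicate 3 allow up to 3 counts, or 0.0555 CPM, by counting error alone. The summed leukocyte markers were lower in the IC libraries only through Arhgdib (log2 fold change -0.66), while the other tested ones stood at 1.06 for Coro1a and 0.35 for Itgb2, neither with an adjusted p from DESeq2. Their part in the Il2rg values was not tested. Il2rg stood at a log2 fold change of -3.41 without IC replicate 1 and at -0.75 with the muscle marker score as a term. DESeq2 gave neither gene an adjusted p.

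Il17ra was among the steadiest of the receptor genes. Its normalized counts were 5776, 6050 and 5944 after IC and 6013, 5632 and 6317 after vehicle, overlapping between groups, with a log2 fold change of -0.02 ± 0.0813 and a 95% interval from -0.17 to 0.14. Its partner chain Il17rc stood at 1417, 1372 and 1543 after IC and at 1054, 1288 and 1019 after vehicle. The IC libraries were each above the vehicle libraries, at 128.9% of the vehicle mean and a log2 fold change of 0.37 ± 0.131, without passing the adjusted threshold. Vehicle replicate 2 was the nearest to the IC range. Without vehicle replicate 2 the log2 fold change was 0.48 and Il17rc was called, and it was also called with 1 surrogate variable as a term. That variable was 0.908 in vehicle replicate 2 and from -0.26 to -0.13 in the rest. Both settings therefore mainly discount the same library and are not separate support.

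Il17rd showed a smaller difference in the same direction. Normalized counts were 3882, 3778 and 3483 after IC and 3352, 3248 and 3284 after vehicle, without overlap, and the log2 fold change of 0.17 ± 0.0880 did not pass the adjusted threshold. Within libraries, the level of Il17rd relative to Il17ra was 0.495 ± 0.0340 after IC and 0.435 ± 0.0228 after vehicle and did not overlap between groups. No share of gene pairs with such ratios was computed. The level of Il17rc relative to Il17ra was 0.791 ± 0.0535 and 0.611 ± 0.115, and the lowest IC value of 0.735 lay below the highest vehicle value of 0.742.

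Il10rb, the second chain of the receptors for interleukin-10, interleukin-22 and interferon lambda, was almost identical in the vehicle libraries at 877, 882 and 874 normalized counts. The IC libraries stood at 982, 884 and 1029, above them but with IC replicate 2 beside the highest vehicle value. The log2 fold change was 0.14 ± 0.131. Il15, a cytokine that is presented to lymphocytes by Il15ra on the surface of the producing cell, stood at 339, 265 and 419 after IC and 226, 300 and 331 after vehicle. These values overlapped, with a log2 fold change of 0.26 ± 0.245 and a 95% interval from -0.22 to 0.74. Il15ra overlapped as well, at 1083, 957 and 1335 after IC and 1054, 1044 and 1042 after vehicle, with a log2 fold change of 0.10 ± 0.145. IC replicate 3 held the highest value of Il13ra1, Il17rc, Il10rb, Il15 and Il15ra alike.

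Of the 10 genes, 8 had an adjusted p from DESeq2 and 1 was called, Il4ra. DESeq2 called 419 of all 19925 tested genes (2.1%), of which 205 were higher (1.03%) and 214 lower (1.07%) after IC. edgeR called 37 genes (0.186%), and Il4ra was among these too. Groups did not overlap for 5 of the 10 genes, against 15.8% of all tested genes. The IC libraries were above for Il17rc, Il17rd and Il10rb (8.09% of all genes) and below for Il4ra and Il2rg (7.67% of all genes). Il2rg met the count filter only in its vehicle libraries, so its place in this count was largely set by the filter. Log2 fold changes were above 0 for 7 genes and below 0 for 3, with a median of 0.12 against -0.0019 for all genes. Since the genes were selected with this contrast in view, nothing is read from these shares.

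**Figure D3:**
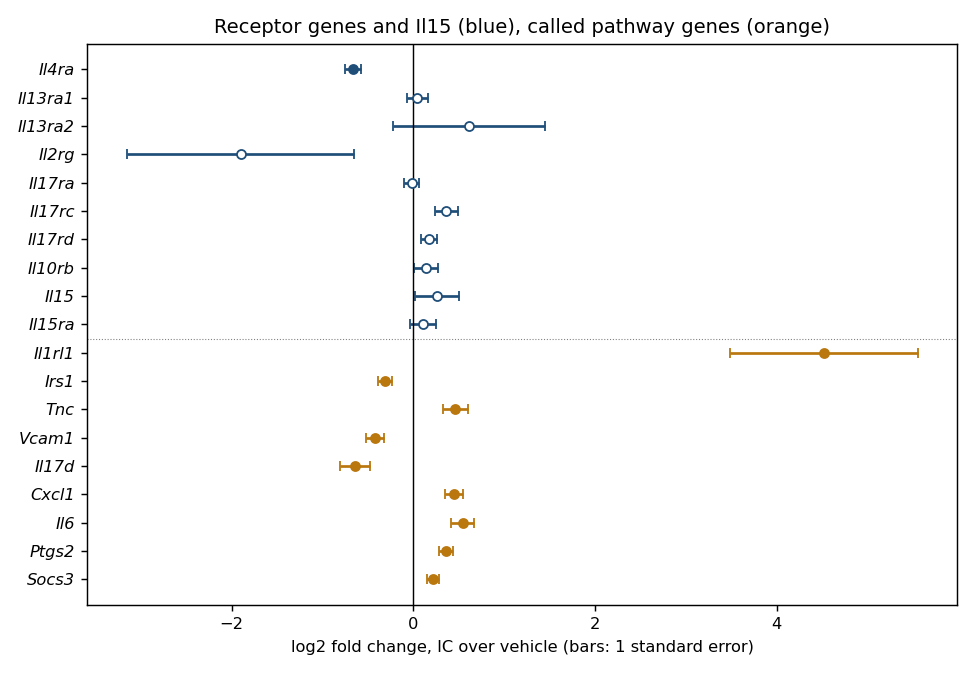
Log2 fold change of IC over vehicle, with bars of 1 standard error, for the 10 genes (blue) and for the 9 pathway genes called by DESeq2 (orange), filled where called. Il4ra is the only filled blue point, at -0.66, and the widest blue bars are those of Il13ra2 and Il2rg, the genes with the lowest counts.

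The genes with the profile most like that of Il4ra were sought among 13435 genes whose normalized counts averaged 100 or more. Likeness was the root mean square difference of log2(normalized count + 1), centred on the mean of the 6 libraries. The nearest were Ldb2 (difference 0.0465), Zfp608 (0.0574), Gpam (0.0740), Pi15 (0.0754) and Colgalt2 (0.0757). Ldb2 encodes a cofactor of LIM-domain transcription factors, Gpam an acyltransferase of glycerolipid synthesis and Colgalt2 a collagen galactosyltransferase. Like Il4ra, each was lowest in IC replicate 2 and highest in vehicle replicate 2, which largely follows from the choice by likeness. Their log2 fold changes ran from -0.70 for Ldb2 to -0.54 for Colgalt2, a range that the choice by likeness to Il4ra fixes.

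**Figure D4:**
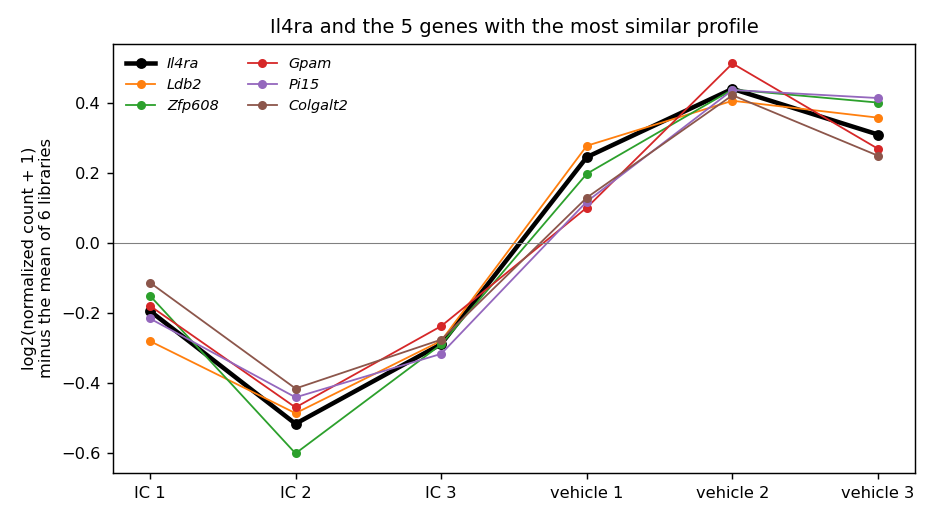
Log2(normalized count + 1) minus the mean of the 6 libraries for Il4ra (black) and the 5 genes nearest to it, by library. All 6 genes are lowest in IC replicate 2 and highest in vehicle replicate 2, which largely follows from the choice by likeness to Il4ra.

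Downstream of these receptors, 6 lists of ligands, signalling components and response genes held 121 further genes, of which 95 were in the table and 80 were tested. DESeq2 called 9 of them (6 higher and 3 lower, 11.25%, against 2.1% of all tested genes), and the median log2 fold change of the 80 was 0.08 against -0.0019 for all tested genes. edgeR called 0 of the 80 at an adjusted p under 0.05 and 26 at an unadjusted p under 0.05, where DESeq2 had 25. Over all tested genes the unadjusted shares were 9.64% in edgeR and 9.80% in DESeq2. The 9 calls therefore rest on DESeq2, and edgeR's adjusted p is given beside each. The lists were written with earlier results of these data known, so nothing is read from the shares of their genes that were called or did not overlap.

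For the type 2 receptor, 2 of 17 tested ligand, receptor and signalling genes were called. Irs1, an adaptor that couples Il4ra to PI3 kinase, fell from 12981, 14422 and 12868 normalized counts after vehicle to 11224, 10974 and 10277 after IC (log2 fold change -0.31 ± 0.0797, adjusted p = 0.00731 in DESeq2 and 0.142 in edgeR). Il1rl1, the receptor for interleukin-33, rose by 4.52 ± 1.03 on the log2 scale (0.00136 and 0.0541), with 197, 2597 and 1630 normalized counts after IC against 38.5, 116 and 37.7. The IC libraries spread widely for Il1rl1, and without IC replicate 2 its adjusted p in DESeq2 was 0.0514. Irs1 also lost its call without IC replicate 3 or vehicle replicate 2, where its adjusted p reached 0.0636.

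The kinases and transcription factor that act directly below Il4ra did not pass the test. Log2 fold changes were 0.06 ± 0.0654 for Jak1, 0.14 ± 0.0993 for Tyk2 and -0.10 ± 0.0884 for Stat6. Jak3, the kinase that pairs with Il2rg, stood at 0.32 ± 0.146 (adjusted p = 0.323 in DESeq2). The ligand gene Il13 had at most 14.6 normalized counts in any library and was not tested, and Il4 was absent from the count table. Among type 2 response genes, 2 of 15 tested were called. Tnc, a matrix glycoprotein, rose by 0.46 ± 0.137 (0.0351 and 0.26) although its groups overlapped, and kept its call in 2 of 6 fits that left out a library. Vcam1, an adhesion molecule, fell by 0.42 ± 0.0974 (0.00146 and 0.0856).

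The interleukin-17 lists gave 1 call in 24 tested ligand, receptor and signalling genes and 3 calls in 17 tested response genes. Il17d, a ligand of the family, fell from 729, 1008 and 973 normalized counts after vehicle to 592, 551 and 591 after IC (log2 fold change -0.64 ± 0.163, adjusted p = 0.00661 in DESeq2 and 0.102 in edgeR). It kept its call in 3 of 6 fits that left out a library, and without IC replicate 2, vehicle replicate 2 or vehicle replicate 3 its adjusted p in DESeq2 reached 0.098. The adaptors that the receptor recruits stood at -0.03 ± 0.136 for Traf3ip2 (Act1) and -0.01 ± 0.108 for Traf6, and neither passed the test. Il17re had 4.72 to 41.0 normalized counts and no adjusted p. Il17rb and Il17f had too few counts to be tested, and Il17a was absent from the count table.

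Each of the 3 called response genes of interleukin-17 was higher after IC, and 8 of the 17 tested had IC libraries all above vehicle libraries against 0 the other way, where 8.09% of all tested genes lay above. The neutrophil chemokine Cxcl1 stood at 32893, 33560 and 42865 normalized counts after IC and 26581, 26133 and 27442 after vehicle (0.45 ± 0.0976, adjusted p = 0.000664 in DESeq2 and 0.107 in edgeR). Il6 rose by 0.55 ± 0.127 (0.00183 and 0.152) and Ptgs2, the inducible prostaglandin synthase, by 0.36 ± 0.0782 (0.000708 and 0.0883). The median log2 fold change of the list was 0.36. These genes also respond to many other stimuli. Cxcl1 and Ptgs2 kept their calls in 6 of 6 fits that left out a library and Il6 in 3 of 6, and the 3 fits that lost Il6 lacked IC replicate 3 or one of vehicle replicates 2 and 3.

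Around Il15, Il2rg and Il10rb, 0 of 11 tested common gamma chain and interleukin-15 genes were called by DESeq2 or by edgeR, with 3 and 4 at an unadjusted p under 0.05 (9.80% and 9.64% of all tested genes). Of these genes 3 had IC libraries above vehicle libraries (8.09% of all tested genes) and 2 below (7.67%). Il2rb, the signalling partner of Il2rg in the interleukin-15 receptor, had 0 to 62.0 normalized counts and no adjusted p. Of 8 tested interleukin-10 family genes, Socs3, an inhibitor of Jak signalling, rose from 46527, 45995 and 47746 to 55021, 53165 and 55069 normalized counts (0.22 ± 0.0640, adjusted p = 0.0305 in DESeq2 and 0.267 in edgeR) and kept its call in 2 of 6 fits that left out a library. Il10ra, the ligand-binding partner of Il10rb, had too few counts to be tested.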

How the data were processed

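RNA-seq libraries of sorted synovial fibroblasts were compared, 3 from IC and 3 from vehicle mice, as the labels group them. Raw gene-level read counts were deposited. The submitters' processing notes name Trim Galore, FastQC, HISAT2, featureCounts and the build mm10. Versions, annotation and the strand setting are not given in the sources used here. The labels and the methods name different total RNA library kits. The methods also name sva, without a number of surrogate variables.

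Testing required 10 counts or more in 3 or more libraries, and used the two-sided Wald test of DESeq2 (version 1.42.0, R 4.3.3) with treatment as the only term, where an adjusted p (Benjamini-Hochberg) under 0.05 made a call. The filter left out 4423 genes with 0.0429% of counts. Fold changes are unshrunken, and ± on them is the standard error. Levels per length used the union of GENCODE M21 exons, matched by symbol for 98.1% of genes. Depth was 40114331 to 56714304 counts per library. Intervals of fold changes are 95% Wald intervals and include the dispersion between libraries. The limit of 3 counts that a count of 0 allows covers counting error only. Alternatives were edgeR (4.0.16), limma-voom (3.58.1), TMM or total-count scaling, other filters, the replicate block, 1 surrogate variable (sva 3.50.0), a muscle marker score as a term, each library left out, and another gene length. The scripts were tested on simulated data.

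The genes and the lists were chosen with earlier results of these data known. Named beside them were called genes of the pathway lists, fixed partner, ligand and signalling genes, and the 5 genes nearest to Il4ra in profile. No 2 libraries of the same group agreed within sampling noise.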

Additional observations from a re-analysis of the deposited data

How the results depend on the processing

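Il4ra kept its direction in 16 of 16 alternative fits. It was called in 8 of the 10 that used 6 libraries, with log2 fold changes from -0.67 to -0.56, and in 6 of 6 that left out a library (-0.73 to -0.58). The exceptions were the muscle marker score as a term and edgeR with the replicate block. Il17rc, Il17rd, Il10rb and Il15 also kept their sign in 16 of 16 fits, Il15ra in 15, Il13ra1 and Il17ra in 14 of 16 and Il13ra2 in 14 of 15. Il2rg kept it in 12 of 12 fits that gave a value. It had none when a vehicle library was left out or under the higher count minimum. Since Il2rg met the count filter only through the vehicle libraries, its kept sign says little about a stable direction.

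The number of calls over all genes depended on the test. It was 419 with DESeq2, 37 with edgeR, 62 with limma-voom and 22 with the muscle marker score as a term. Of the 37 edgeR calls, 37 were shared with DESeq2. Leaving out a library gave 281 to 677 calls, the highest without vehicle replicate 1, in which Gm42418 held 0.964% of counts against 0.375% to 0.553% elsewhere. For the pathway genes, 9 calls became 0 with edgeR (26 at an unadjusted p under 0.05), 0 with limma-voom (27), 0 with the muscle marker score (6) and 6 to 14 when a library was left out, with 14 without vehicle replicate 1 and 6 without IC replicate 2 or vehicle replicate 2. The cause was not tested. With the longest transcript as length, 5 of 10 levels moved by more than 1 SD between libraries, by 1.12-fold for Il17ra to 1.92-fold for Il15ra, and 6 instead of 7 neighbouring pairs kept their order in 6 libraries. With a library left out, 7 pairs kept it.

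Replicate numbers were shared by the groups. Correlations of same-numbered deviations were -0.092, -0.164 and 0.025 and showed no sign of pairing. With 3 libraries per group, they cannot exclude a shared batch. With the replicate block, DESeq2 called 320 genes and 9 pathway genes, and edgeR called 22 genes and 1 pathway gene.

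Depth limits Il13ra2 and Il2rg most, at 0 to 35 counts per library.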
